A study of Mus musculus with 12 samples.

Results

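Myelin and oligodendrocyte lineage genes were read as the probes that carry the symbols Mbp, Mog, Mag, Mobp, Mal, Cnp, Cldn11, Olig1 and Pdgfra on an Agilent mouse array. Those made up 9 of 27308 gene symbols, with 18 of 56605 probes. Hypothalamus RNA was hybridized to 12 single-color arrays, 3 per group, and each value below is a normalized log2 signal, on which a difference of 1 is a fold change of 2. All mice were male C57BL/6 animals, and their labelled age of 6 to 7 weeks is that at which swimming began. Daily swimming then ran for several weeks, and the age at which tissue was taken is not given. WT were wild-type littermates that did not swim, KO were homozygous Asmt knockouts that did not swim, exWT were wild-type littermates in a swimming program, and KE were Asmt knockouts in that program. Asmt encodes the last enzyme of melatonin synthesis. The paper states that C57BL/6J mice already have low Asmt activity and melatonin deficiency from birth. The knockout came from zygotes injected with Cas9 and a guide, from founders with a short deletion, and was backcrossed for 3 generations. Replicate numbers are those of the sample titles, and the short sample names in the labels number some samples otherwise. Nothing in the labels says that the arrays of a group came from separate animals, so p-values measure the spread between these samples, which may be technical.

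Oligodendrocytes wrap axons in myelin, a stacked membrane rich in lipid and in a small set of proteins, which lets action potentials jump between gaps in the sheath. They form from precursor cells that divide in response to platelet-derived growth factor and that stay in the adult brain. The transcription factors OLIG1, SOX10 and MYRF take the lineage to the myelinating state, in which the genes of the sheath are switched on together. In the hypothalamus, myelinated fibres include tracts that pass through or beside it, such as the fornix and the optic tract.

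Promoters of these genes are shown here because SOX10 and MYRF act through such sequences. Whether the motifs bear on how the genes varied from array to array was not tested. The 250 bases before a RefSeq start were read for 7 of the 9 genes, as 9 entries on build GRCm38.p6. Mbp and Olig1 were not among them. A SOX core motif (ACAAAG, or CTTTGT on the other strand) and 1 form of the MYRF motif (CTGGCAC, or GTGCCAG on the other strand), which do not overlap each other, were searched on both strands and are in capitals. Mobp is read on the plus strand from chr9:120149492-120149741, Mag from the outermost of its 3 starts on the minus strand from chr7:30914923-30915172, and Cnp on the plus strand from chr11:100574689-100574938.
Mobp: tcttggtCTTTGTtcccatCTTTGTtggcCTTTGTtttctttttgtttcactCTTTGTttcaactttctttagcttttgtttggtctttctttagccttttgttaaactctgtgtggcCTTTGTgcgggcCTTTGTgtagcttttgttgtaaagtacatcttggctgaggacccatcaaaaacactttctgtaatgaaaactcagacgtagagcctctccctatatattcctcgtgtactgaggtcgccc
Mag: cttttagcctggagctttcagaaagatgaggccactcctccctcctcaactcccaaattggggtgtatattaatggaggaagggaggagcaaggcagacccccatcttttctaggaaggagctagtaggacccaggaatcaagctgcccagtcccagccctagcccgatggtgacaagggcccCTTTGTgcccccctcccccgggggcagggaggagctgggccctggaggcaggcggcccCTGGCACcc
Cnp: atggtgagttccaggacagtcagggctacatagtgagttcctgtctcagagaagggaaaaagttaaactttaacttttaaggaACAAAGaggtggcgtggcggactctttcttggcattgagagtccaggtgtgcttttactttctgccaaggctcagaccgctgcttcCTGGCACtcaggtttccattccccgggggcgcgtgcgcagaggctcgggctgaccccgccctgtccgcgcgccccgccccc
The SOX core stood in 4 of the 9 entries (3 of the 7 genes) and in 16.5% of 32851 mouse promoter windows of the same length. The Mobp window held 6 copies, all on the minus strand, and windows with 5 or more numbered 2 of the 32851 (a number chosen after the Mobp count was seen). The MYRF form stood in 3 of the 9 entries (2 of the 7 genes), against 4.19% of all windows. For both motifs, 2 of the entries are overlapping Mag windows that hold the same site. The windows of Mog, Mal, Cldn11 and Pdgfra held neither motif. Such a match is a stretch of letters and not a measured binding site.

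The arrays lay on 2 slides, with the 3 WT arrays and KO replicates 1 and 2 on slide 1 and KO replicate 3 with all exWT and KE arrays on slide 2. Over the tested probes, the leading principal component took up 48.5% of the variance and separated the slides. Swimming and slide can therefore be told apart only through the KO arrays, and a second fit of each comparison took slide as a blocking term. Of the spots on an array, 61.6% to 67.9% were well above background, and no spot was saturated (0 on each array). Asmt has 1 probe, which was well above background on 0 of 12 arrays (log2 signal 1.83 to 2.49), so the genotype was not read from it.

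Testing required a signal well above background throughout 1 or more groups, which held for 17 of the 18 probes of these genes and for 35230 probes in all. The brightest tested probe stood for each gene, and all 9 of these were well above background on 12 of 12 arrays. The untested probe, for Pdgfra, was well above background on 1 array. Positions below come from the array design, on build mm9, and whether they lie in a coding or untranslated exon was not looked up, since no annotation of that build was used here.

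Of the proteins of compact myelin, Mbp encodes myelin basic protein, which holds the inner faces of the membrane together. Its probe (chr18:82754032-82754091) read 13.72, 13.68 and 13.84 in WT, 13.92, 13.38 and 13.63 in KO, 13.72, 13.56 and 13.85 in exWT, and 13.54, 13.68 and 14.04 in KE. Every pair of groups overlapped, and the KO arrays alone spanned nearly the whole range. Mobp, a small basic protein of the same compartment, read 13.16, 13.48 and 13.45 in WT, 13.17, 13.32 and 13.24 in KO, 13.25, 13.10 and 13.40 in exWT, and 12.98, 13.26 and 13.56 in KE (chr9:120085150-120085209). Its lowest and highest arrays were both KE. Mal, a lipid-raft protein of the sheath, read 14.87, 15.13 and 15.18 in WT, 15.07, 15.09 and 15.10 in KO, 15.09, 15.03 and 15.26 in exWT, and 14.92, 15.04 and 15.34 in KE (chr2:127458976-127459035). The KO arrays lay within the WT range.

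Mog and Mag encode glycoproteins of the outer and the innermost surface of the sheath. Mog (chr17:37148277-37148336) read 9.97, 10.13 and 10.33 in WT, 10.09, 9.87 and 10.03 in KO, 9.95, 9.74 and 10.13 in exWT, and 9.86, 9.93 and 10.40 in KE. All groups overlapped. Mag (chr7:31684202-31684261) read 12.89, 13.11 and 13.14 in WT, 12.89, 12.67 and 13.01 in KO, 13.03, 12.84 and 13.01 in exWT, and 13.09, 13.12 and 13.42 in KE. Each KE array was above each KO and each exWT array for Mag, whereas KE and WT overlapped.

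Cnp encodes a phosphodiesterase of the cytoplasmic channels of myelin, and Cldn11 the claudin that seals its layers. Cnp (chr11:100442617-100442676) read 13.69, 13.73 and 13.84 in WT, 13.75, 13.74 and 13.66 in KO, 13.59, 13.53 and 13.78 in exWT, and 13.53, 13.64 and 13.88 in KE, with overlap throughout. Cldn11 (chr3:31062922-31062981) read 13.23, 13.21 and 13.30 in WT, 13.11, 13.15 and 13.00 in KO, 13.08, 13.07 and 13.37 in exWT, and 12.94, 13.07 and 13.41 in KE. The KO arrays all lay below the WT arrays for Cldn11, and no other pair of groups was apart for it. The share of all tested probes that kept groups apart in this way was not counted, here or for Mag.

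For the lineage, Olig1 encodes the transcription factor of precursors and mature cells, and Pdgfra the growth factor receptor of the precursors. Olig1 (chr16:91271799-91271858) read 13.36, 13.50 and 13.50 in WT, 13.35, 13.42 and 13.40 in KO, 13.44, 13.49 and 13.68 in exWT, and 13.40, 13.50 and 13.68 in KE. Pdgfra (chr5:75593888-75593947) read 11.35, 11.39 and 11.48 in WT, 11.38, 11.44 and 11.40 in KO, 11.34, 11.41 and 11.60 in exWT, and 11.38, 11.46 and 11.62 in KE. The groups overlapped in every comparison made for both genes; KO lay below exWT for Olig1, a pair that differs in both genotype and swimming.

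**Figure D1:**
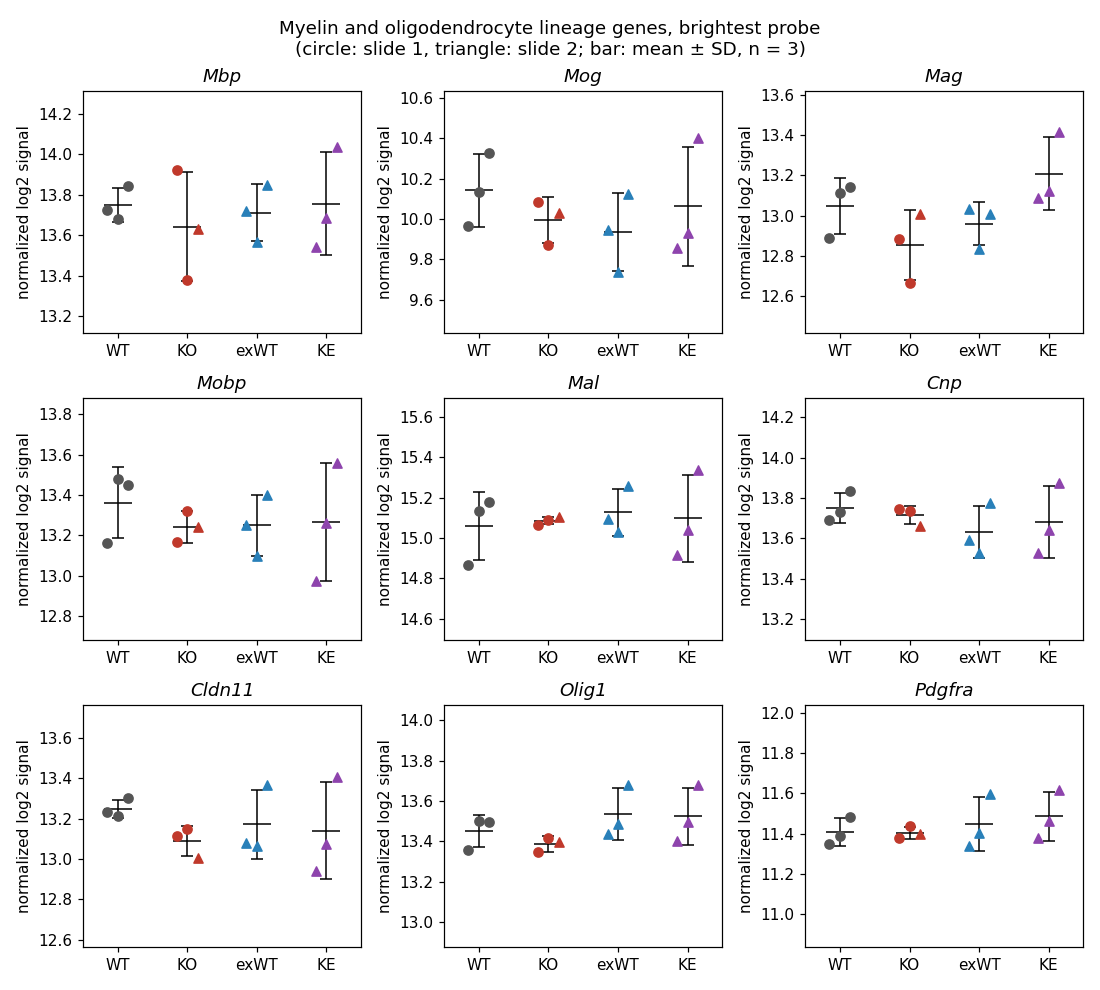
Normalized log2 signal (vertical axis) of the brightest probe of each of the 9 genes in the WT, KO, exWT and KE groups (horizontal axis). Circles are arrays of slide 1, triangles arrays of slide 2, and bars the mean ± SD of 3 arrays. In most panels the arrays of a group spread as far as the groups do, and KE is above both KO and exWT without overlap for Mag alone.

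For Asmt knockout in mice that did not swim, none of these genes passed the test. In KO versus WT, 8 of the 9 genes had a lower mean and 1, Mal, a higher one, with a median log2 fold change of -0.11 beside -0.01 over all tested probes. Mag had the largest difference. Its mean was 13.05 in WT (SD 0.14, n = 3) and 12.85 in KO (SD 0.17, n = 3), which is -0.19 as a log2 fold change, with a standard error of 0.12. For Cldn11, whose arrays did not overlap, it was -0.16 (standard error 0.12, adjusted p = 0.846 by limma with Benjamini-Hochberg adjustment over all tested probes). At an unadjusted p of at most 0.05 none of the 9 passed in either direction (0 higher, 0 lower), whereas 2.38% of all tested probes passed as higher and 3.09% as lower. None (0) met the screening criterion, which the methods set at 2-fold in either direction with that p and which 0.227% of tested probes met, and none (0) had an adjusted p under 0.05, as for 0% of all probes. The 95% confidence intervals of the 9 genes ran from a fold of 0.709 to 1.22. In tissue RNA, fewer cells of a type and less RNA per cell cannot be told apart.

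In knockout mice, Mag was higher after swimming before adjustment, and the other 8 genes did not pass. In KE versus KO, 8 of 9 genes had a higher mean, with a median log2 fold change of 0.07 beside -0.04 over all tested probes. Without KE replicate 3 that median was -0.08. Mag went from 12.85 ± 0.17 (SD, n = 3) in KO to 13.21 ± 0.18 (SD, n = 3) in KE, a log2 fold change of 0.35 (standard error 0.12, unadjusted p = 0.0136, adjusted p = 0.173 by limma), and so did not pass after adjustment. Blocked by slide, its log2 fold change was 0.20 (unadjusted p = 0.238 by limma), which for this contrast rests on KO replicate 3 as the KO level. The unadjusted call was also lost with the methods' unpaired test and without KE replicate 3 or KO replicate 2. It stood at 0.43 (adjusted p = 0.0349 by limma) without KO replicate 3, where KO and slide 1 coincide. It was the 1 gene of 9 that passed as higher, and 0 passed as lower, while 8.10% of all tested probes passed as higher and 13.0% as lower. No member (0 of 9) met the screening criterion, against 1.21% of probes, or had an adjusted p under 0.05, against 0.0199%. The intervals of the 9 genes ran from a fold of 0.812 to 1.54.

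For swimming in wild-type mice, none of the 9 genes passed. In exWT versus WT the median log2 fold change was -0.08 beside -0.04 over all probes, with 3 genes higher and 6 lower in mean. Mog differed most, with a mean of 10.14 in WT (SD 0.18, n = 3) and of 9.94 in exWT (SD 0.19, n = 3), or -0.21 as a log2 fold change (standard error 0.16, adjusted p = 0.412 by limma). Of the 9 genes 0 passed as higher at an unadjusted p of at most 0.05 and 0 as lower, where 11.7% and 14.2% of all tested probes did. None (0) met the screening criterion, against 2.19%, or the adjusted one, against 0%. The intervals ran from a fold of 0.680 to 1.25. WT was on slide 1 alone and exWT on slide 2 alone.

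Between the exercised groups, which share slide 2, Mag again differed most. In KE versus exWT it was at 12.96 ± 0.11 (SD, n = 3) in exWT and 13.21 ± 0.18 (SD, n = 3) in KE, a log2 fold change of 0.25 (standard error 0.12, unadjusted p = 0.0625, adjusted p = 0.761 by limma), with all KE arrays above all exWT arrays. The median of the 9 was 0.04 beside -0.01 over all probes. None of the 9 passed at an unadjusted p of at most 0.05 (0 higher, 0 lower), where 2.17% of all probes passed as higher and 4.55% as lower. None (0) met the screening criterion, against 0.250%, or had an adjusted p under 0.05, against 0%. The intervals ran from a fold of 0.808 to 1.43.

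Whether swimming acted differently in the 2 genotypes was tested with the interaction term, the KE minus KO difference less the exWT minus WT difference. It was above 0 for 8 of 9 genes, with a median of 0.13 on the log2 scale beside -0.01 over all probes, and below 0 for Mal. Without KE replicate 3 the median was -0.01. For Mag it was 0.44 (standard error 0.17, unadjusted p = 0.0247, adjusted p = 0.579 by limma), a call lost with 75th percentile scaling, with the probes of a gene averaged, or without KE replicate 3, KO replicate 2, exWT replicate 2, WT replicate 2 or WT replicate 3, and blocked by slide it was 0.52 (unadjusted p = 0.0126 by limma). Mag was the 1 gene of 9 that passed as higher and 0 passed as lower, where 3.58% and 4.18% of all tested probes did. None (0) met the criterion of a 2-fold difference at that p, against 0.602%, or an adjusted p under 0.05, against 0%. The intervals ran from a fold of 0.745 to 1.76, wider than in the other contrasts. The comparisons share arrays, and their values are therefore given side by side only.

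**Figure D2:**
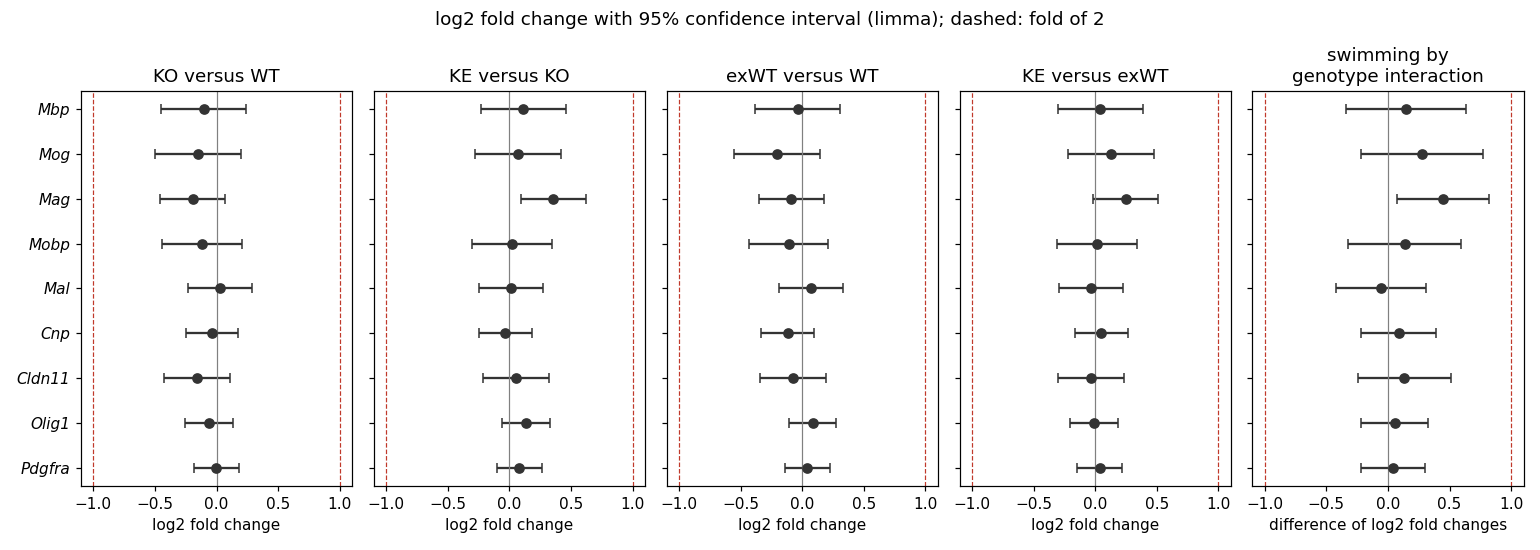
Log2 fold change (horizontal axis; in the last panel the difference between 2 log2 fold changes) of the 9 genes (vertical axis) in 5 comparisons, with 95% confidence intervals from limma. All intervals lie between the dashed lines at a fold of 2 in either direction, and those of Mag in KE versus KO and in the interaction leave out 0.

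Much of the variation in these genes was between arrays of the same group, and the genes shared it. The mean of the 7 sheath genes (Mbp, Mog, Mag, Mobp, Mal, Cnp and Cldn11) was 13.08, 13.21 and 13.30 in WT, 13.14, 13.03 and 13.10 in KO, 13.10, 12.98 and 13.26 in exWT, and 12.98, 13.11 and 13.43 in KE. Lowest and highest of all 12 were thus KE replicate 1 and KE replicate 3, which differed by 0.46 on the log2 scale, a fold of 1.37. By group (n = 3, ± SD), WT had 13.19 ± 0.11, KO 13.09 ± 0.06, exWT 13.11 ± 0.14 and KE 13.17 ± 0.23, and the highest and lowest of these means differed by 0.11, a fold of 1.08.

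KE replicate 3 was the highest KE array for 9 of the 9 genes and the highest of all 12 arrays for 8 of them; for Olig1 exWT replicate 3 was the highest. KE replicate 1 was the lowest KE array for 9 of 9. In exWT, replicate 3 was highest for 8 of 9 genes and replicate 2 lowest for 7, and in WT, replicate 3 was highest for 7 and replicate 1 lowest for 7. The KO arrays showed no such order: replicates 1, 2 and 3 were highest for 3, 4 and 2 genes. Mbp and Mag were the least even there, both lowest on KO replicate 2, at -0.34 and -0.35 from their 12-array means, whereas Mobp and Cnp were at 0.04 on that array.

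**Figure D3:**
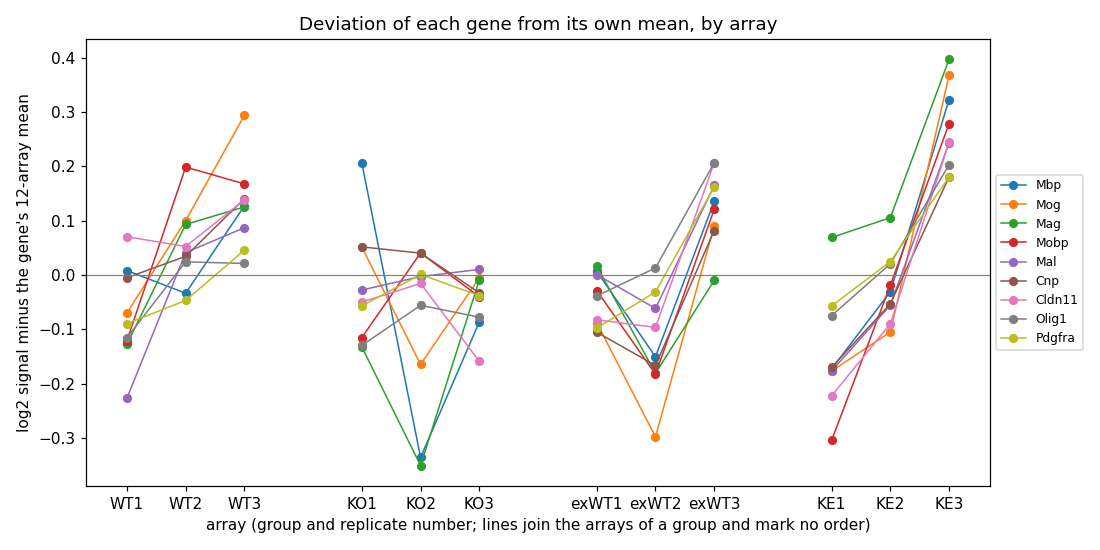
Log2 signal of each of the 9 genes minus its own mean over 12 arrays (vertical axis), by array (horizontal axis; replicate numbers have no order). All 9 genes lie above their means on WT replicate 3 and KE replicate 3, and 8 lie below on exWT replicate 2 and on KE replicate 1.

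After group means were taken off, the 36 pairs among the 9 genes had a median Pearson r of 0.80 over 12 arrays (lowest 0.44, highest 0.97), as a description over arrays that share slides. Without KE replicate 3 (a choice made after the data were seen) the median was 0.62 over 11 arrays, and r was above 0 in 36 of 36 pairs, the lowest being 0.00081. Olig1 and Pdgfra, which are not in the mean of the 7, had an r of 0.85 and 0.82 with it, and 0.73 and 0.71 without that array. Of 18257 other genes, 0.926% had an r over 0.8 with the mean of the 7, and the median r of all was 0.02.

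Outside the 9 genes, those whose pattern over the 12 arrays was most like that mean, of 18257, were Tmem88b (r = 0.97), Ttyh2 (0.97), Galnt6 (0.95), Fa2h (0.95), Atp10b (0.94), Lpar1 (0.94), AI314604 (0.93), Klk6 (0.92), Frmd8 (0.92) and Prr18 (0.91). Fa2h makes the hydroxylated fatty acids of myelin lipids, and Lpar1 is a lysophosphatidic acid receptor. Tmem88b read 12.93, 13.08 and 13.24 in WT, 13.03, 12.83 and 12.92 in KO, 12.90, 12.84 and 13.20 in exWT, and 12.77, 12.96 and 13.30 in KE. Klk6, a secreted serine protease, had the widest span of the 10 like genes, from 8.57 on KE replicate 1 to 9.99 on KE replicate 3. By deviations from group means the leading 10 outside the 9 genes were Galnt6 (r = 0.98), Pdlim2 (0.98), Tmem88b (0.98), Zeb2 (0.97), Ttyh2 (0.97), Gm35343 (0.97), Tspan2 (0.97), Ugt8a (0.96), Ado (0.95) and AI314604 (0.95). Ugt8a makes the galactosylceramide of myelin and Zeb2 is a transcription factor of the lineage. Without KE replicate 3 these 10 had an r of at least 0.89.

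**Figure D4:**
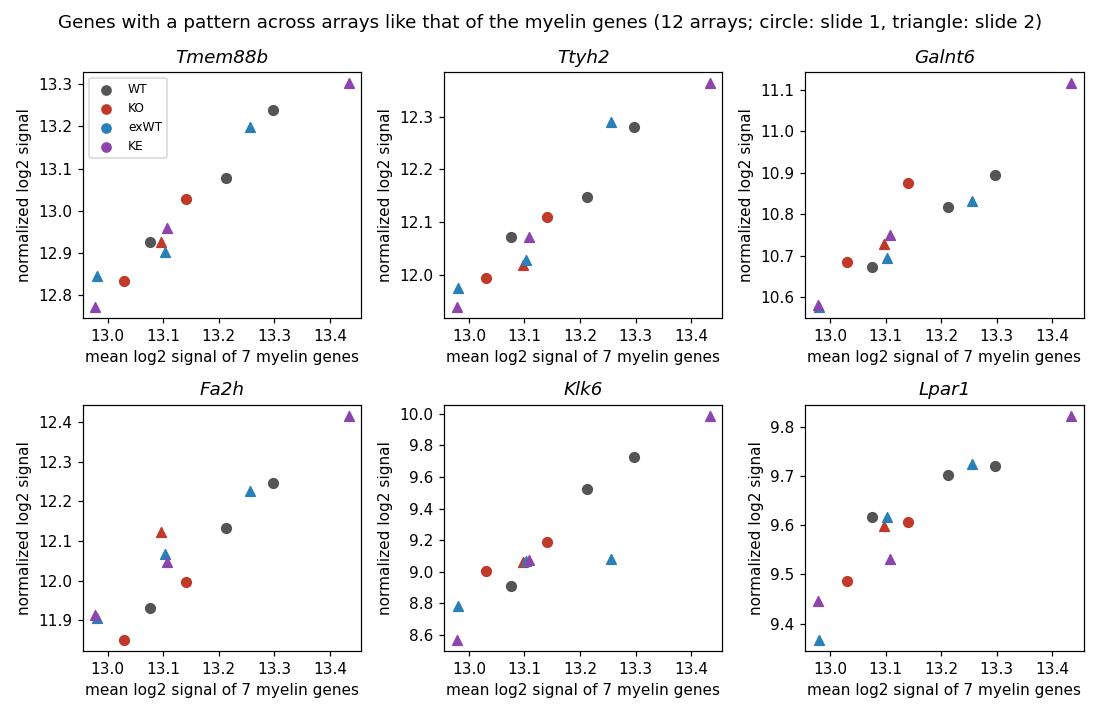
Normalized log2 signal of 6 genes (vertical axes) against the mean log2 signal of the 7 sheath genes (horizontal axis), 1 point per array, colored by group, with circles for slide 1 and triangles for slide 2. In all 6 panels the point of KE replicate 3 is at the upper right, at a mean of 13.43.

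Lists of other cell types were read on the same arrays. All 6 neuron markers, 7 astrocyte markers and 6 microglia markers were well above background on 12 arrays. The neuron list averaged 14.09 to 14.18 in WT, 14.09 to 14.21 in KO, 14.18 to 14.21 in exWT and 14.14 to 14.21 in KE, and stood at 14.18 on KE replicate 3. The astrocyte list averaged 12.86 to 12.88 in WT, 12.77 to 12.93 in KO, 12.81 to 12.87 in exWT and 12.77 to 12.87 in KE, and the microglia list 10.87 to 11.04 over the 12 arrays. The 12 markers of hypothalamic neurons, 11 of them well above background on all arrays, averaged 12.85 to 13.19. Endothelial markers averaged 9.68 to 9.90 and pericyte markers 8.97 to 9.19. The neuron, astrocyte, microglia, endothelial and pericyte lists spanned less than the sheath genes, and the ependymal list (10.84 to 11.32) and the choroid plexus list (8.55 to 9.64) more. On KE replicate 3 the ependymal list stood at 10.98 and the choroid plexus list at 8.93. The 6 markers of thalamus and cortex (5 of them well above background on all 12 arrays) were highest in each group on replicate 3, at 9.20 in WT, 8.97 in KO, 9.31 in exWT and 9.22 in KE, the arrays that were also highest for the sheath genes in 3 of the 4 groups. The 6 striatum markers reached 10.14 on exWT replicate 3 and 9.44 on WT replicate 3 but 8.86 on KE replicate 3, within a KE range of 8.84 to 8.86. The part of neighbouring tissue in the pattern of the sheath genes was not tested.

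Schwann cells make myelin in peripheral nerve. Of their markers, Pmp2 was well above background on 1 of 12 arrays, and 4 of the list of 6 on all 12. The list averaged 6.49 to 6.68 in WT, 6.59 to 6.82 in KO, 6.51 to 7.50 in exWT and 6.40 to 6.48 in KE, its highest value being exWT replicate 3. Fibroblasts of the meninges also make Pdgfra. Their 6 markers, all well above background on 12 arrays, averaged 8.85 to 9.06 in WT, 8.72 to 9.67 in KO, 8.93 to 9.28 in exWT and 8.71 to 9.23 in KE, with the highest value on KO replicate 2, where Pdgfra read 11.44. Their part in the Pdgfra signal was not tested.

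Other probes of the same genes differed in how they followed the slides. The second and the third Mbp probes, the second and the third Mog probes and the second Mobp probe ranged over 0.27 to 0.83 on the log2 scale across the 12 arrays, and their slides overlapped. By contrast, the second probes of Mag (chr7:31692616-31692675), Cnp (chr11:100452986-100453043) and Pdgfra (chr5:75579392-75579451) were higher on every array of slide 2 than on every array of slide 1. The array design lists no RefSeq transcript for these 3. Nor does it for the third Mog probe and the untested Pdgfra probe, whose slides overlapped. The second Mag probe read 6.53 to 7.08 on the 5 arrays of slide 1 and 7.25 to 7.55 on the 7 of slide 2. The second Cnp probe read 5.72 to 6.23 and 6.59 to 6.81, and that of Pdgfra 3.25 to 3.94 and 4.58 to 5.07. KO replicate 3, the KO array on slide 2, read 0.71 and 0.46 above the mean of KO replicates 1 and 2 on the Mag and Cnp probes. The second Pdgfra probe was well above background on the 7 arrays of slide 2 and on none of slide 1. On the brightest probe of the 3 genes the slides overlapped. Of all 35230 tested probes, 10.4% were higher on every slide 2 array and 11.4% lower.

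**Figure D5:**
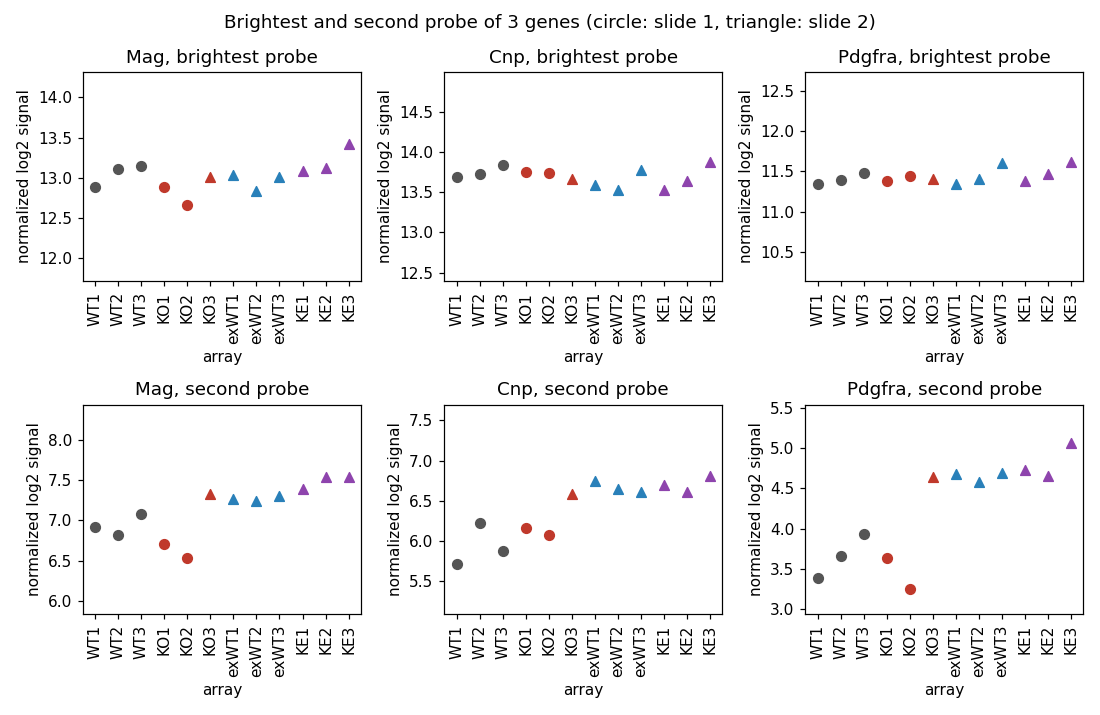
Normalized log2 signal (vertical axes) of the brightest (upper row) and second probe (lower row) of Mag, Cnp and Pdgfra on each of 12 arrays (horizontal axes). Circles are slide 1 and triangles slide 2, and in the lower row KO replicate 3 lies with the other slide 2 arrays.

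Counted by probe, these 3 second probes made most of the calls at an unadjusted p of at most 0.05. Of all tested probes, 8.10% passed as higher and 13.0% as lower in KE versus KO. In exWT versus WT these shares were 11.7% and 14.2%, and in KO versus WT 2.38% and 3.09%. They were 2.17% and 4.55% in KE versus exWT, and 3.58% and 4.18% in the interaction. In KE versus KO, 4 of 17 probes passed as higher, both Mag probes (0.35 and 0.64), the second Cnp probe (0.43) and the second Pdgfra probe, and 1, the second Mbp probe, passed as lower (-0.18, adjusted p = 0.18 by limma). Of the KO arrays 1 of 3 measured the second Pdgfra probe, at 4.64, and the KE arrays read 4.72, 4.66 and 5.07, so no fold is given. In exWT versus WT, 2 passed as higher, the second Cnp probe (log2 fold change 0.73, adjusted p = 0.0933 by limma) and the second Pdgfra probe. The latter was well above background on 3 of 3 exWT arrays and on no WT array (mean log2 signal 3.66 in WT and 4.65 in exWT, adjusted p = 0.101 by limma). WT lay on slide 1 alone and exWT on slide 2 alone, and blocked by slide the log2 fold change of this probe was -0.21. Without the block it was 1.31-fold higher in exWT with each WT array raised to its own dimmest signal among probes well above background. That value is not a strict lower limit. The second Mog probe passed as lower, at -0.39 (adjusted p = 0.169 by limma). In KO versus WT the second Cnp probe passed as higher (0.34), in KE versus exWT no probe passed in either direction (0), and in the interaction the brightest Mag probe passed as higher. Blocked by slide, none (0) of the 17 passed in KE versus KO. In KO versus WT only the second Mag probe then passed, as lower (-0.32). In exWT versus WT 0 then passed as higher and 1, the second Mag probe, as lower (-0.38, unadjusted p = 0.0247 by limma), which without the block was at 0.33. In KE versus exWT the second Mag probe then passed as higher (0.23, unadjusted p = 0.0182 by limma). In the blocked interaction both Mag probes passed as higher, the second at 0.55 (unadjusted p = 0.00121 by limma), and the second Mbp probe as lower (-0.19). No probe of the 17 passed after adjustment in the blocked fit (0). The share of all tested probes that passed in the blocked fit was not counted.

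Other genes of the lineage were read from lists of the pathway, 1 probe per gene, and rose and fell here mean past an unadjusted threshold. Of 40 myelin proteins and enzymes of mature oligodendrocytes, all tested, 0 rose and 2 fell in KO versus WT at an unadjusted p of at most 0.05, with a median log2 fold change of -0.11. The 2 were Mboat1 (-0.31, adjusted p = 0.846 by limma) and Pllp, plasmolipin (-0.21). In KE versus KO 3 rose and 0 fell (median 0.08), led by Ermn, ermin, at 0.55, which was at -0.01 with the slide as a block; Pex5l stood at 0.29. In exWT versus WT 1 rose, Ermn (0.63, and -0.21 with the block), and 3 fell, among them Mboat1 (-0.38, and -0.16 with the block) and Nfasc, which anchors the sheath beside the nodes (-0.22, and -0.03 with the block), with a median of -0.04. In KE versus exWT 0 of 40 passed in either direction (median 0.03). The interaction was higher for 3 and lower for 0, with a median of 0.14 beside -0.01 over all probes: Mboat1 (0.47), Pllp (0.36) and Nfasc (0.25), and with the block 0.40, 0.37 and 0.19. With the block, 0 of the 40 passed in either direction in KO versus WT, KE versus KO and exWT versus WT, 1 was higher in KE versus exWT, Nfasc at 0.14, and 4 were higher in the interaction. None of the 40 passed after adjustment in any comparison (0; lowest adjusted p = 0.100 by limma).

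Transcription factors of the lineage numbered 20, all tested. In KO versus WT 0 rose and 2 fell, among them Nkx2-2 (-0.20, or -0.22 blocked by slide). In KE versus KO 4 rose and 2 fell, led by Prrx1 at -0.40 (adjusted p = 0.0817 by limma; -0.33 with the block) and Nkx6-2, a factor of myelinating cells, at 0.60 (0.28 with the block). In exWT versus WT 2 rose and 3 fell, among them St18 (-0.44, and -0.18 with the block) and Prrx1 (-0.19, and -0.09 with the block). In KE versus exWT 0 of 20 passed in either direction. The interaction passed as higher for Nkx2-2 (0.29) and Nkx6-2 (0.60) and as lower for 0. Medians were -0.04, 0.13, -0.02, 0.02 and 0.11 in that order of contrasts. With the block, 3 were lower in KO versus WT, 1 was lower in KE versus KO, 0 passed in exWT versus WT, 1 was higher in KE versus exWT, and 3 were higher and 1 lower in the interaction.

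Of 25 genes of precursors and newly formed oligodendrocytes, 1 rose and 0 fell in KO versus WT, 0 and 0 passed in KE versus KO, 2 rose and 1 fell in exWT versus WT, 1 of each in KE versus exWT, and 0 were higher and 1 lower in the interaction. Gpr17, a receptor of cells about to mature, was higher in exWT than in WT (0.17; blocked by slide it was 0.11 and no longer passed) and lower in KE than in exWT (-0.17, adjusted p = 0.71 by limma), with an interaction of -0.21 (-0.19 with the block, no longer past the threshold). Xylt1, a xylosyltransferase, rose by 1.27 in exWT versus WT (adjusted p = 0.0933 by limma), past the screening criterion, and was at -0.02 with the slide as a block. Medians of the 25 lay between -0.04 and 0.06. With the block, 1 was lower in KO versus WT, 1 was higher and 1 lower in KE versus KO, 0 passed in exWT versus WT, 1 of each passed in KE versus exWT, and 1 was higher in the interaction.

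Signals and receptors of the lineage (33 of 35 tested) had 1 gene higher and 0 lower in KO versus WT, 4 and 4 in KE versus KO, 8 and 2 in exWT versus WT, 1 and 1 in KE versus exWT, and 1 and 3 in the interaction. With the block these were 1 and 0, 0 and 1, 1 and 1, 1 and 2, and 1 and 2. Erbb4, a neuregulin receptor, was at 0.99 in exWT versus WT and at -0.08 with the slide as a block. Pdgfc, a ligand of the receptor that Pdgfra encodes, was lower in KE than in exWT (-0.17) with an interaction of -0.30. Cholesterol and lipid enzymes, which feed the membrane of the sheath (33 of 33 tested), had 0 higher and 1 lower in KO versus WT, 2 and 4 in KE versus KO, 1 and 4 in exWT versus WT, 1 and 2 in KE versus exWT, and 2 and 0 in the interaction. With the block they were 0 and 0 in the first 3 contrasts, 0 and 2 in KE versus exWT and 0 and 1 in the interaction. Insig1, a brake on sterol synthesis, was at -0.45 in exWT versus WT (-0.26 with the block) and Elovl6, a fatty acid elongase, at -0.18 in KE versus exWT. Axonal proteins of the node and its borders (15 tested of 16, Epb41l3 having no probe) had 0 and 0 in KO versus WT, KE versus exWT and the interaction, 1 higher (Cntnap2, 0.28) in KE versus KO and 1 lower (Kcna2, -0.39) in exWT versus WT. Both calls ended with the block, at -0.04 and -0.18. With it, 1 gene was lower in KO versus WT, 1 lower in exWT versus WT and 1 higher in the interaction, each time Cntnap2 (-0.23, -0.36 and 0.32). Without the block, no gene of these lists passed after adjustment (0 in every comparison). The percentages of all tested probes given above for each contrast are those of the fit without the block. No such percentage was taken for the blocked fit, so the blocked counts stand without one.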

How the data were processed

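Hypothalamus RNA of 12 samples was measured on Agilent SurePrint G3 Mouse V2.0 arrays. The authors deposited scanner files with the intensity of each spot (Feature Extraction 10.7.1.1, background subtracted and detrended within the array), and a table of log2 values quantile-normalized over all arrays. The deposited lists of the authors' own comparisons, which hold fold changes and p-values, were not used, nor were the 24 columns of values per sample in those lists. From the processed intensity, control and outlier spots were left out, log2 was taken, the spots of each probe were averaged, and quantile normalization followed. Probes had to be well above background throughout 1 or more groups to be tested (35230 of 56605). Group means were fitted over 12 arrays with limma 3.58.1 in R 4.3.3, with Benjamini-Hochberg adjustment over all tested probes. On simulated data only the KO versus WT contrast was checked, with and without the slide block. The screening criterion was an absolute fold change of at least 2 at an unadjusted p of at most 0.05. The brightest tested probe stood for a gene.

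The number of arrays limits the precision. The genes, lists, tests and alternatives were chosen with earlier results of these data known. Besides the 9 genes, those named were the up to 3 of each list and comparison with the lowest unadjusted p at or under 0.05, from which some were taken, and the 10 most like the mean of the 7 sheath genes. Some genes of the lists are counted but not reported here by name. The alternatives were 75th percentile scaling, normexp background correction (offset 50), the authors' table, no filter or a filter on all 12 arrays, the methods' unpaired test, only the 2 groups compared, the slide or the replicate number as a block, 1 slide alone, outlier spots kept, probes averaged per gene and leaving out each array. Figures were drawn with matplotlib.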

Additional observations from a re-analysis of the deposited data

Results flagged for a closer look

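The change in Mag with swimming differed between the genotypes by the interaction test before adjustment, at 0.44 on the log2 scale (unadjusted p = 0.0247, adjusted p = 0.579 by limma). Mag was at 0.35 in KE versus KO and at -0.09 in exWT versus WT, or blocked by slide at 0.20 and -0.32. Groups of 3 arrays were not screened for single arrays that stand apart.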

How the results depend on the processing

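Over 24 alternatives no gene of the 9 met the screening criterion, and 1 passed an adjusted p under 0.05 in 1 case, Mag in KE versus KO without KO replicate 3 (0 to 1 genes when arrays were left out). Median log2 fold changes moved beyond the spread between replicates when probes were averaged per gene in exWT versus WT (0.067) and without KE replicate 3, which put the median at -0.081 in KE versus KO (-0.08 to 0.17 over arrays left out) and at -0.011 in the interaction (-0.01 to 0.23). Counts of the 9 genes at an unadjusted p of at most 0.05 changed as follows. In KE versus KO, where it was 1, the count was 0 with the methods' unpaired test, the slide as a block or slide 2 alone, 2 with probes averaged per gene, and 0 to 1 with arrays left out, the call being lost without KE replicate 3 or KO replicate 2. In the interaction, where it was 1, it was 0 with 75th percentile scaling or averaged probes and 0 to 1 with arrays left out (lost without KE replicate 3, KO replicate 2, exWT replicate 2, WT replicate 2 or WT replicate 3). Where it was 0, it was 1 in KE versus exWT with normexp, with the replicate block, and without KE replicate 1 or KO replicate 2 (0 to 1), 1 in KO versus WT with the methods' test, and 2 in exWT versus WT with averaged probes. The cause was not tested. Same-numbered arrays of different groups had deviations correlated at -0.19 to 0.25 over 18 pairs, and differently numbered ones at -0.26 to 0.24 over 36. For 6 of 12 arrays the best match carried the same number. The numbers were not taken to pair samples, and the replicate block changed no other count of these genes.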
